A study of Platichthys stellatus with 16 samples.

Results

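Muscle of female starry flounder was set against muscle of males of this flatfish (Platichthys stellatus), with 2 RNA-seq libraries per sex. These 4 libraries, of 16 listed for the series, were chosen by their labels alone, which give the tissue, the sex and a replicate number. All fish were 3 years old and no treatment is named for either sex. The other 12 libraries, from brain, liver and gonad of both sexes, served to estimate the spread and to ask where muscle differs from other tissues. The sample labels name muscle where the text of the series has pituitary, and here the tissue is taken from the sample labels. Each of the 16270 assembled genes in the table, called features here, was compared. The fish behind a library is not given. A p-value here therefore reflects only how far all 16 libraries spread within their groups, not the 4 muscle libraries alone, and that spread may be technical.

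Fish trunk muscle is mostly white, fast muscle, which makes its energy by breaking glycogen and glucose down to lactate, and a smaller part is red, slow muscle that burns fat. Contraction rests on actin thin filaments sliding past myosin thick filaments. Muscle protein is also a reserve: in fasting, stress or spawning, ubiquitin ligases such as atrogin-1 (FBXO32) mark muscle proteins for breakdown in the proteasome, and autophagy clears organelles, as is best known from mammals. Alanine and glutamine carry the nitrogen of the amino acids so released to other organs.

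The label of muscle fits the levels of a skeletal actin and a tropomyosin. Other muscle markers in the table, such as titin and the thick filament features, were far less abundant, as given below. The skeletal actin acta1 (TRINITY_DN140043_c3_g1) stood at 74259 and 58497 FPKM in the female muscle libraries and at 25098 and 17342 FPKM in the male ones, against group means of 6.46 to 23.7 FPKM in brain, liver and gonad of either sex. FPKM counts fragments relative to effective length and to the size of the library, and it is the scale of all levels below. The tropomyosin TPM3 (TRINITY_DN136097_c1_g2), a rod protein of the thin filament, stood at 35515 and 35592 FPKM in female muscle and at 20402 and 7890 FPKM in male muscle, against 11.2 to 136 elsewhere. No value in any of the 16 libraries was below 0.31 FPKM, so genes silent in one of the tissues are outside the comparison. Gene symbols are those of the closest protein in the authors' annotation, and more than one feature can stem from the same gene or from near-identical genes. A value belongs to the feature described, not to every feature of that name. Of 136 names of called features picked for closer reading, 62 were also carried by features that did not pass, and for 21 of these names, among them KEAP1, PDE4DIP, Pkm, TECPR1, ULK1, Ubqln4 and NFIL3, such a feature lay on the other side of 0.

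The listed counts came to 5158429 and 5134221 in female muscle and to 7178217 and 8376943 in male muscle. The 20 most abundant features held 35.01% and 41.1% of these counts in female muscle and 20.4% and 11.1% in male muscle. Counts were therefore scaled by TMM, which aligns the bulk of features, and log2 differences below are female minus male on that scale, ± SE from edgeR's quasi-likelihood F test. Under it the median difference of all features was -0.02, against -0.42 when counts were scaled by listed counts, -0.70 by recovered library totals, and -0.55 and -0.66 by limma on log2(FPKM + 1) and log2(FPKM + 0.1). By FPKM alone 49.6% of all features did not overlap between the sexes: 43.1% of all stood higher in both male libraries and 6.42% higher in both female ones. A lack of overlap in FPKM is thus common on the male side.

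Of 16270 features, 481 (2.96%) passed an adjusted p of 0.05 (edgeR, Benjamini-Hochberg), of which 196 (1.2%) were higher in female muscle and 285 (1.75%) higher in male muscle. The smallest difference among them was 1.15 on the log2 scale, and 468 of the 481 did not overlap between sexes in FPKM. At an unadjusted p below 0.05 there were 3342 features. Features higher in female muscle included some glycolytic enzymes, actins and enzymes of one-carbon metabolism. The actin and one-carbon families were picked after their values were seen. Features higher in male muscle included some ubiquitin ligases and proteasome subunits, chaperones, ribosome assembly factors and enzymes of fat oxidation. The share of calls on the female side was 40.7%, but 13.1% when scaled by listed counts (121 higher, 804 lower), 5.16% by recovered totals (108 higher, 1984 lower), 5.92% and 5.93% by limma on log2(FPKM + 1) and log2(FPKM + 0.1). It was 44.4% without female muscle 1, 59.5% without female muscle 2 (22 higher, 15 lower), 29.2% without male muscle 1 and 17.1% without male muscle 2. With the 4 muscle libraries alone, edgeR called 0 features, with 2387 at an unadjusted p below 0.05.

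The 2 libraries of a sex were not alike in every respect. The absolute log2 difference between them had a median of 0.44 in female muscle and 0.70 in male muscle, and 328 features in female and 1047 in male muscle differed over 4-fold. Leaving out one library left 37 calls without female muscle 2, 189 without female muscle 1, 336 without male muscle 1 and 410 without male muscle 2. Each of the 481 kept its sign in all 4 of these fits, but 468 did not overlap in FPKM, so little else could have been seen. The threshold was passed in all 4 by 25 features, 18 higher in female and 7 higher in male muscle, and in none by 119.

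**Figure D1:**
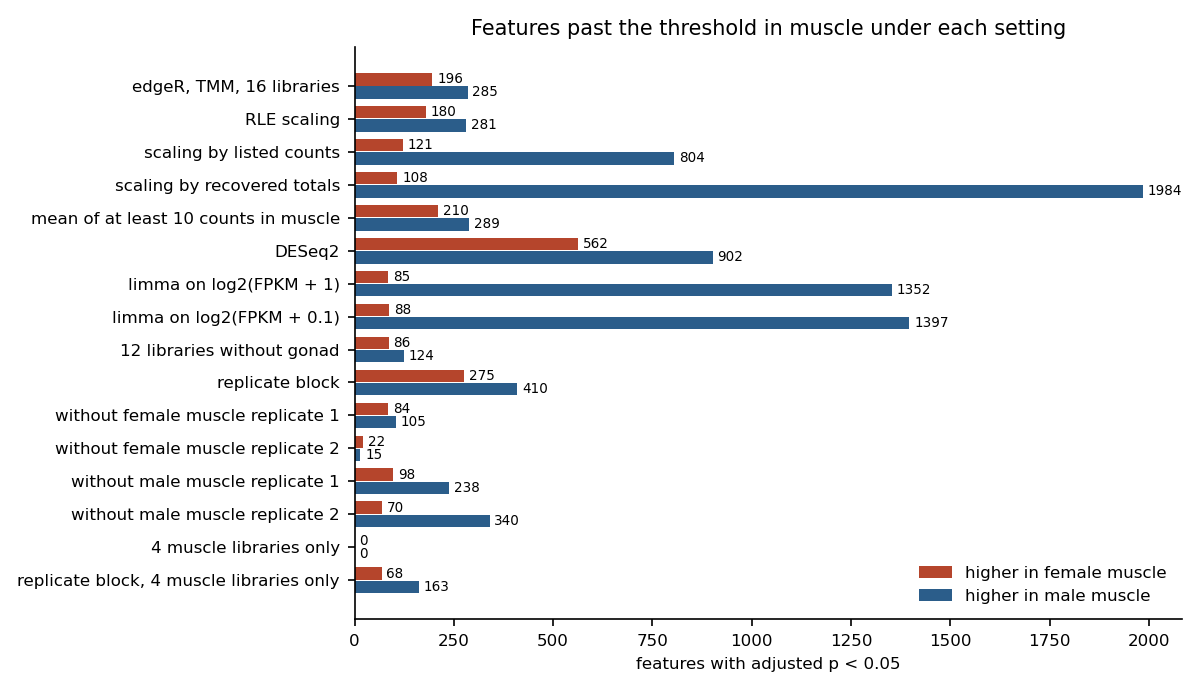
Number of features past an adjusted p of 0.05 in the muscle comparison, higher in female muscle (upper bars) and higher in male muscle (lower bars), under the settings named at the left. The 196 and 285 of the first setting become 108 and 1984 when libraries are scaled by their recovered totals and 22 and 15 without female muscle 2.

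**Figure D2:**
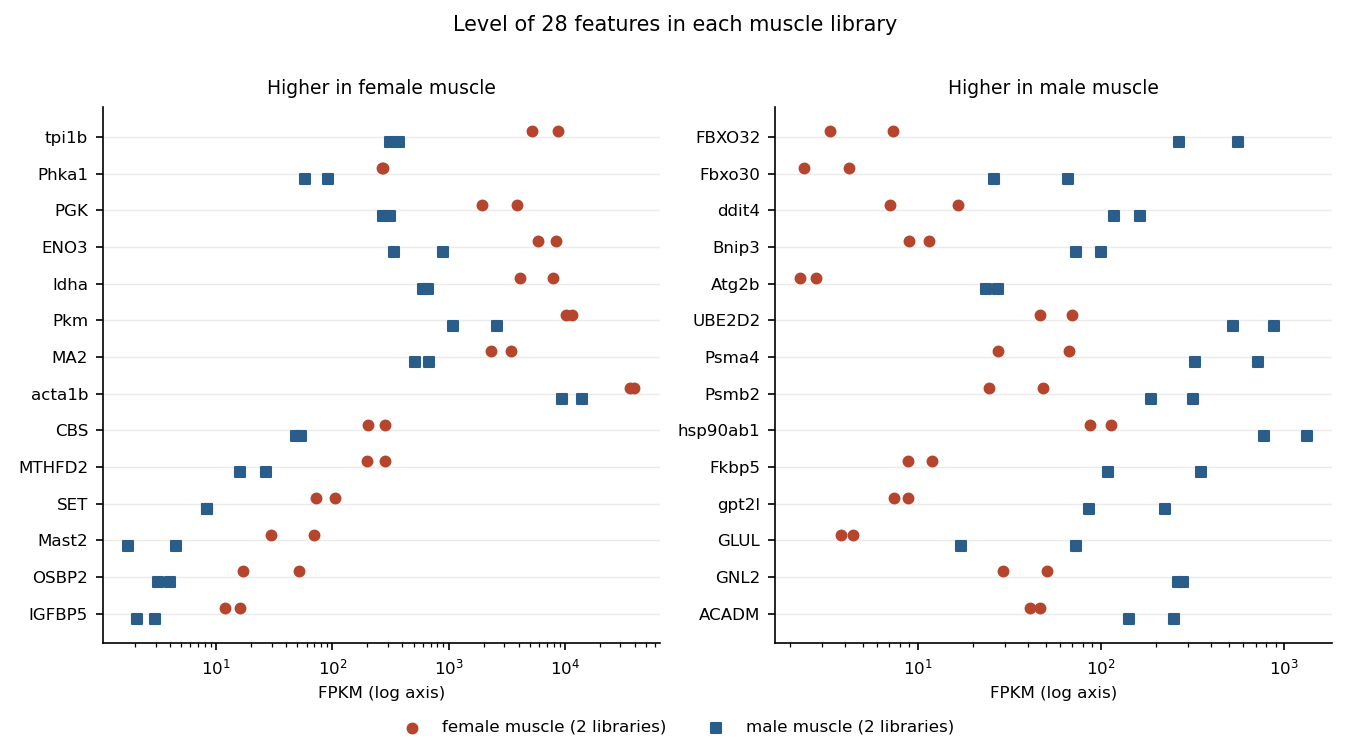
FPKM (log axis) of 28 features past the threshold, with both female muscle libraries as circles and both male muscle libraries as squares; the left panel holds features higher in female muscle and the right panel features higher in male muscle. The sexes do not overlap for any of the 28, from tpi1b at 5197 and 8737 FPKM in female against 373 and 314 in male muscle to FBXO32 at 7.31 and 3.30 in female against 268 and 564 in male muscle. Lack of overlap was part of the rule that picked some of them. It holds for 468 of the 481 calls and for 49.6% of all features.

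The glycolytic enzymes higher in female muscle act from the triose phosphates down to lactate and on glycogen. Triosephosphate isomerase tpi1b (TRINITY_DN128666_c1_g1), which interconverts the triose phosphates, stood at 5197 and 8737 FPKM in female muscle against 373 and 314 FPKM in male muscle. Its log2 difference was 4.98 ± 0.70 (edgeR adjusted p = 0.0042), the largest among the 196 features higher in female muscle, and it passed in 4 of 4 fits with one library left out. It was high in both female libraries and low in both male ones.

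Muscle isozymes of the later steps were in the same direction. Beta-enolase ENO3 (TRINITY_DN135574_c3_g3), the muscle form of the enzyme that makes phosphoenolpyruvate, stood at 5930 and 8335 FPKM in female muscle and 888 and 342 FPKM in male muscle (4.04 ± 0.81, edgeR adjusted p = 0.019). A second ENO3 feature, at 19827 and 24499 FPKM in female and 2535 and 801 FPKM in male muscle, had a difference of 4.23 that missed the threshold at an adjusted p of 0.053. The feature named gamma-enolase ENO2, a neuronal isozyme in mammals, belongs to the same assembled cluster as the first ENO3 feature and was higher by 4.29 ± 0.99 (edgeR adjusted p = 0.035). Pyruvate kinase Pkm, which yields pyruvate and ATP, stood at 10145 and 11540 FPKM in female and 2610 and 1096 FPKM in male muscle (3.06 ± 0.69, 0.033). Lactate dehydrogenase ldha, which turns pyruvate to lactate, stood at 4095 and 7981 FPKM in female muscle and 606 and 664 FPKM in male muscle (3.82 ± 0.68, edgeR adjusted p = 0.011), and a second ldha feature of that cluster was higher by 3.63 ± 0.59 (0.0078). For each of these enzymes the nearest libraries of opposite sex differed by a larger ratio than the 2 libraries of either sex.

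Of the features named GAPDH or gapdh, for the enzyme that oxidises glyceraldehyde phosphate, 3 were higher by 3.63 to 3.95, and another, at 147281 and 136541 FPKM in female muscle and 22853 and 20092 FPKM in male muscle, missed the threshold (3.38 ± 0.87, edgeR adjusted p = 0.052). These features are fragments of 219 to 507 bases that may share reads, and their FPKM is raised by their short effective length. The other 2 features of these names lay below 0 and did not pass (-1.26 and -1.29, edgeR adjusted p = 0.35 for each). A phosphoglycerate kinase fragment (PGK, TRINITY_DN145268_c4_g3, 262 bases) was higher by 4.47 ± 0.72 (0.0076), at 1938 and 3863 FPKM in female and 270 and 314 FPKM in male muscle. Aldolase Aldoa stood at 86456 and 114885 FPKM in female and 21453 and 12335 FPKM in male muscle, which did not overlap, but its difference of 3.15 ± 1.10 had an adjusted p of 0.13. On the glycogen side, phosphoglucomutase Pgm1 (2.49 ± 0.61, 0.044) and the phosphorylase kinase subunit Phka1 (2.35 ± 0.40, 0.0098), which switches glycogen phosphorylase on, were higher in female muscle. Muscle phosphorylase PYGM itself stood at 81.9 and 52.6 FPKM in female muscle and 83.5 and 82.1 FPKM in male muscle, a difference of 0.31 ± 0.48 that did not pass (edgeR adjusted p = 0.76), nor did another feature of that name (-0.53, 0.61).

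Of the 79 features of the glycolysis and glycogen list, 12 were higher in female muscle (against 1.2% of all features), 3 were higher in male muscle and 64 did not pass, and the median difference was -0.02, as in all features. In all, 38 of the 79 lay above 0 and 41 below. The 3 that were higher in male muscle are PFKFB1 and 2 Pfkfb4 features, bifunctional enzymes that set the level of fructose 2,6-bisphosphate, the activator of phosphofructokinase (-2.35 to -2.91). Together the list held 20.2% and 26.6% of listed counts in female muscle and 3.59% and 2.18% in male muscle. Without female muscle 2 the higher count was 2, without female muscle 1 it was 7, and without male muscle 2 it was 4.

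**Figure D3:**
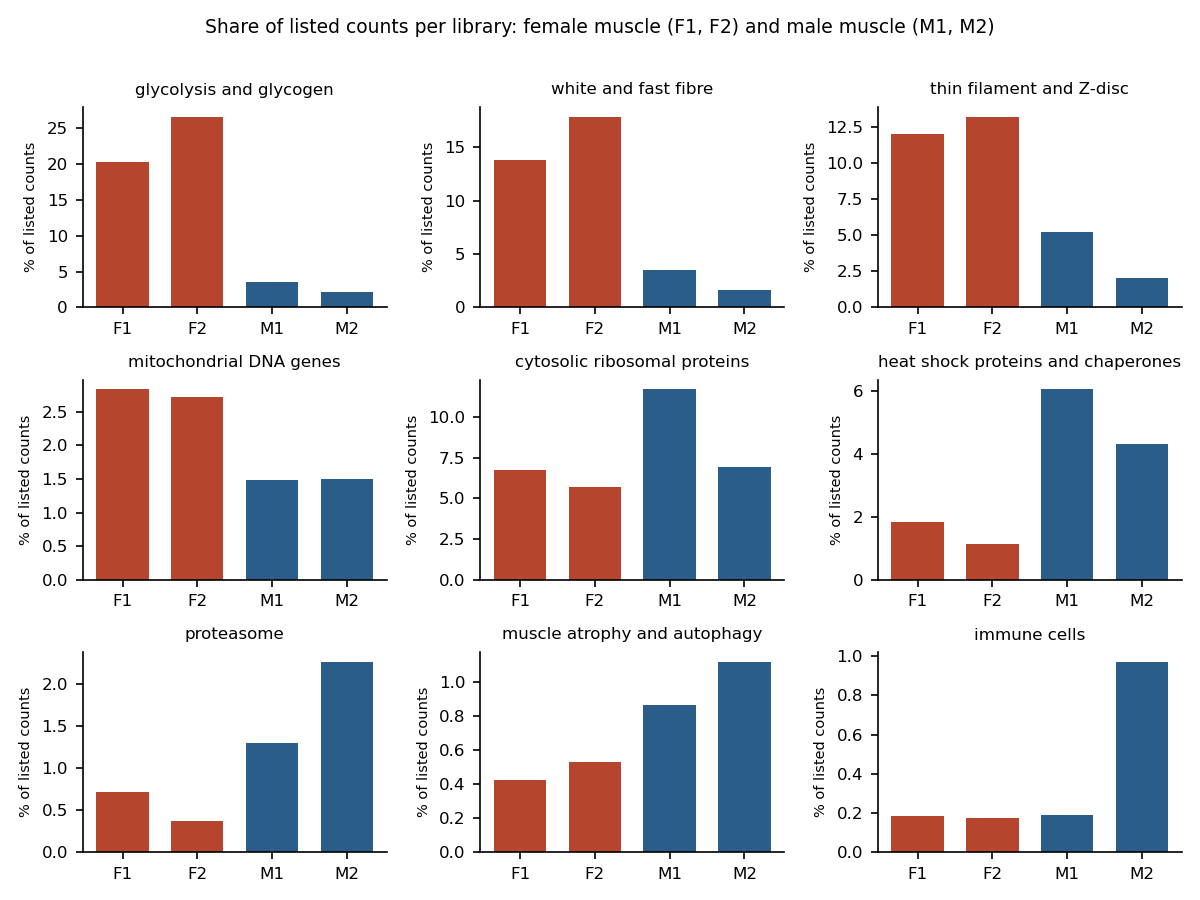
Share of a library's listed counts (percent, each axis from 0) held by 9 gene lists in female muscle 1 and 2 (left bars) and male muscle 1 and 2 (right bars). Glycolytic, fast-fibre and thin-filament features hold more in both female libraries, chaperones, proteasome and atrophy features more in both male libraries, and immune features more in male muscle 2 (0.972%) than in the other 3 (0.173 to 0.189%).

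Several actins, the protein of the thin filament, were also higher in female muscle. Of 22 features named as actins, a family picked after its values were seen, 6 were higher in female muscle (against 1.2% of all features). In male muscle 0 were higher, 16 did not pass, and the median of 0.72 turned negative under 3 of the 5 other scalings. The skeletal actin acta1b (TRINITY_DN129561_c1_g1) stood at 39741 and 36511 FPKM in female and 14020 and 9540 FPKM in male muscle (2.30 ± 0.55, edgeR adjusted p = 0.040). The more abundant acta1, whose values are given above, had a difference of 2.40 ± 0.95 and an adjusted p of 0.17, and ACTA1, another skeletal actin, one of 2.49 ± 0.79 (0.10). The smooth-muscle-type Actg2 (3.76 ± 0.62, 0.0081) and the cardiac-type ACTC1 (3.34 ± 0.83, 0.046) passed, and ACTC1 stood at 1768 and 13670 FPKM in female muscle and 1671 and 1341 FPKM in male muscle, so female muscle 1 was close to the males. A further 3 features whose closest named protein is an actin of another kind of organism, ACTB_G1, ARDA and MA2, were higher by 3.29 to 3.82, and they may share reads with the other actins. Without female muscle 2 none of the 22 passed, and without male muscle 2 there were 2.

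Among the 11 features of the white and fast fibre list, 4 were higher in female muscle (against 1.2% of all features) and 0 in male muscle. This list had a median of 2.49 that kept its sign under all 5 other scalings. Its called members are actins and glycolytic enzymes described above. Without female muscle 2 none was higher in female muscle and 1 was lower, and without male muscle 2 there was 1 higher. Of the 20 thin filament and Z-disc features 3 were higher in female muscle, each an actin, and the median of 0.67 turned negative under 2 of the 5 other scalings. Of the 10 red and slow fibre features 1, ACTC1, passed, 5 lay above 0 and 5 below. Their median of 0.2 turned negative under 4 of the 5 other scalings. They held 4.9% and 5.36% of listed counts in female muscle and 2.64% and 0.87% in male muscle. The lowest value was that of the heart-type fatty acid binding protein fabp3, a carrier of fat in red muscle. It stood at 308 and 215 FPKM in female and 1225 and 973 FPKM in male muscle (-1.45, edgeR adjusted p = 0.18). Of the 8 thick filament features none passed by edgeR and 1 reached an unadjusted p of 0.05. Titin (TTN) stood at 40.7 and 28.1 FPKM in female muscle and 43.5 and 69.0 FPKM in male muscle. These 8, of 4 distinct names, summed to only 154 and 250 FPKM in female and 340 and 663 FPKM in male muscle. Thick filament genes silent in brain, liver or gonad are outside the comparison and were not read. Of 27 features for excitation and calcium handling 1 passed (3.7%, against 2.96% of all features), calmodulin CALM, the calcium sensor. It was higher in female muscle (137 and 101 FPKM against 32.3 and 61.4 in male muscle, 2.06 ± 0.40, edgeR adjusted p = 0.017). Other features named CALM lay above 0 and did not pass (0.51 and 0.39). The median of the 27 was 0.36, which turned negative under 4 of the 5 other scalings. Adenylate kinase ak1, which recycles ADP in working muscle, stood at 9294 and 7720 FPKM in female and 2059 and 1972 FPKM in male muscle, with an adjusted p of 0.16.

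Some enzymes that feed one-carbon units and cysteine were also higher in female muscle. This family too was gathered after its values were seen: 5 of its 17 features (29.4%, against 1.2% of all features) were higher in female muscle and 0 in male muscle, 10 lay above 0 and 7 below, and the median was 1.23. Mitochondrial MTHFD2 (TRINITY_DN134057_c0_g1), which oxidises one-carbon units bound to folate, stood at 197 and 283 FPKM in female muscle against 27.0 and 16.01 FPKM in male muscle (3.98 ± 0.72, edgeR adjusted p = 0.012). Glycine decarboxylase GLDC stood at 16.8 and 91.4 FPKM in female muscle against 5.16 and 6.01 FPKM in male muscle (4.02 ± 0.85, 0.025), so its female libraries differed more from each other than its male ones. Cystathionine beta-synthase, which condenses homocysteine with serine, was higher in 2 features of one cluster, CBS at 285 and 201 FPKM in female against 48.1 and 53.3 FPKM in male muscle (3.05 ± 0.52, 0.0097) and Cbs (2.93 ± 0.68, 0.035). The formyl-folate enzyme ALDH1L2 was higher by 1.92 ± 0.46 (0.042). The count of 5 was 3 without female muscle 1, 2 without male muscle 1 and 0 without female muscle 2 or male muscle 2.

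Other large differences on the female side fell on regulators and membrane proteins. The microtubule-associated kinase Mast2 (TRINITY_DN143752_c2_g2) stood at 29.3 and 68.8 FPKM in female muscle against 1.74 and 4.47 FPKM in male muscle (4.66 ± 0.58, edgeR adjusted p = 0.0032, 4 of 4 fits). The histone chaperone SET (TRINITY_DN149046_c4_g1) stood at 105 and 71.6 FPKM in female against 8.24 and 8.34 FPKM in male muscle (4.07 ± 0.47, 0.0032, 4 of 4 fits). The 3 other features named SET or Set did not pass (0.02, 0.19 and -0.53), nor did the other 2 named Mast2 or MAST2 (0.05 and 0.19). The oxysterol-binding protein OSBP2 (3.88 ± 0.55, 0.0045), the autophagy protein TECPR1 (3.63 ± 0.56, 0.0068) and the pseudokinase TRIB2 (2.76 ± 0.35, 0.0032) also passed in 4 of 4 fits. The centrosomal and sarcomeric protein PDE4DIP was higher by 4.17 ± 0.60 (0.0049) and 2 Ptgfrn features, for a membrane protein that binds other receptors, by 4.03 and 4.10.

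Some signalling genes with known roles in muscle were among the calls, and they are named here after their values were seen. IGFBP5, a binding protein for insulin-like growth factors, stood at 16.1 and 11.99 FPKM in female muscle against 2.97 and 2.07 FPKM in male muscle (2.82 ± 0.55, edgeR adjusted p = 0.017). It was the 1 feature of 68 in the growth hormone, IGF and TOR list that was higher in female muscle, while SOCS3 and Tsc1 were higher in male muscle. Of this list 4.41% passed, against 2.96% of all features, and its median was -0.01. The calcineurin subunit PPP3CA, a phosphatase that carries calcium signals to gene expression in muscle, was higher in female muscle in 2 of 3 features, PPP3CA (2.31 ± 0.36, 0.0074) and Ppp3ca (1.75 ± 0.43, 0.046), and did not pass in the other (0.34, 0.72). The oxygen sensor EGLN1, which marks hypoxia-inducible factor for breakdown, stood at 79.5 and 90.5 FPKM in female and 29.7 and 34.9 FPKM in male muscle (1.97 ± 0.32, 0.0074). Of 37 clock features, ARNTL, a core activator of the circadian clock, was higher in female muscle (2.14 ± 0.49, 0.033). NFIL3, a repressor of clock output, was higher in male muscle (-2.14 ± 0.49, 0.035). Of the clock list 5.41% passed, against 2.96% of all features. Its median was 0.03, which turned negative under 4 of the 5 other scalings. The other ARNTL features lay above 0 and did not pass (edgeR adjusted p = 0.31 and 0.55). The other feature named nfil3 also lay above 0 and did not pass (0.92, 0.21).

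On the male side the largest named difference was FBXO32 (TRINITY_DN131817_c0_g1), known as atrogin-1, the F-box subunit of a ubiquitin ligase that marks wasting muscle in mammals and fish. It stood at 7.31 and 3.30 FPKM in female muscle against 268 and 564 FPKM in male muscle. The log2 difference was -5.39 ± 0.70 (edgeR adjusted p = 0.0032), and it passed in 3 of 4 fits with one library left out, missing at 0.053 in the other. In brain, liver and gonad FBXO32 had group means of 5.78 to 32.8 FPKM, and both male muscle libraries were above that range. A second F-box gene, Fbxo30, whose product is a muscle ubiquitin ligase also called MUSA1, stood at 2.39 and 4.22 FPKM in female muscle and 26.0 and 66.1 FPKM in male muscle (-2.79 ± 0.41, 0.0058, 4 of 4 fits), while another feature of that name had a difference of 1.19 ± 0.49 (0.19).

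Some other genes of protein and organelle turnover were in the same direction. The autophagy lipid-transfer protein Atg2b stood at 2.78 and 2.28 FPKM in female muscle and 23.7 and 27.6 FPKM in male muscle (-2.70 ± 0.31, edgeR adjusted p = 0.0032, 4 of 4 fits). The stress-induced inhibitor of the growth kinase mTOR, ddit4, stood at 7.01 and 16.7 FPKM in female and 117 and 164 FPKM in male muscle (-2.84 ± 0.62, 0.027). The mitophagy receptor Bnip3 had a difference of -2.48 ± 0.52 (0.023) and ULK1, the kinase that starts autophagy, one of -2.57 ± 0.63 (0.044). These 6 are the features that passed among the 80 of the muscle atrophy and autophagy list. They are 7.5% of the list, against 1.75% of all features. None of the 80 was higher in female muscle, 28 lay above 0 and 52 below, and the median was -0.43. The autophagy protein TECPR1, which is not in the list, was higher in female muscle, as given above. The count was 6 without either male library, 3 without female muscle 1 and 2 without female muscle 2.

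Proteasome subunits lay lower in female muscle as a group. All 64 proteasome features had a difference below 0, 0 passed as higher in female muscle and 15 (23.4%, against 1.75% of all features) as higher in male muscle. The median was -1.27. It stayed negative under each other scaling, but these moved the median of all features down (-0.04 to -0.70, against -0.02). They were therefore no test of that sign. The 20S core, the barrel that cuts proteins, had 5 of its 26 features past the threshold, and the 19S cap, which recognises and unfolds tagged proteins, 8 of its 27. The core subunit Psma4 (TRINITY_DN135634_c1_g2) stood at 67.1 and 27.4 FPKM in female muscle against 326 and 718 FPKM in male muscle (-2.73 ± 0.42, edgeR adjusted p = 0.0068). The core subunit Psmb2 was at 48.0 and 24.4 FPKM in female and 188 and 320 FPKM in male muscle (-2.08 ± 0.34, 0.0079), and the cap subunit PSMD12 at 30.3 and 12.3 FPKM in female and 112 and 245 FPKM in male muscle (-2.17 ± 0.41, 0.015). The activators psme4a (-2.35 ± 0.39, 0.0089) and psme4b (-2.26 ± 0.42, 0.015), which cap the core in place of the 19S particle, passed as well. The count of 15 was 11 without either male library and 12 without female muscle 1, but 0 without female muscle 2, where the median was -0.95.

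Some enzymes around the proteasome were also higher in male muscle. The ubiquitin-conjugating enzyme UBE2D2, which hands ubiquitin to many ligases, stood at 70.0 and 46.5 FPKM in female muscle against 527 and 882 FPKM in male muscle (-3.03 ± 0.39, edgeR adjusted p = 0.0032, 4 of 4 fits). A second Ube2d2 feature had a difference of -2.57 ± 0.33 (edgeR adjusted p = 0.0032), and ube2v2, Ube2a and Ube2g1 had differences of -1.66 to -2.19. Thus 5 of 43 UBE2 features passed and all 5 were higher in male muscle (11.6%, against 1.75% of all features). This family too was picked after its values were seen. Of the 43, 20 lay above 0 and 23 below, with a median of -0.04. The other features named UBE2D2 (0.40, 0.35 and 0.62) or UBE2A (0.48 and 0.14), in either case of letters, lay above 0 and did not pass. The proteasome-bound enzymes Usp14, which removes ubiquitin (-2.34 ± 0.54, 0.036), and UBE3C, which adds it (-2.33 ± 0.33, 0.0042), and the shuttle protein Ubqln4 (-2.25 ± 0.42, 0.015) were higher in male muscle. So were NPLOC4 and NSFL1C, partners of the unfolding enzyme VCP (-2.18 and -1.75).

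**Figure D4:**
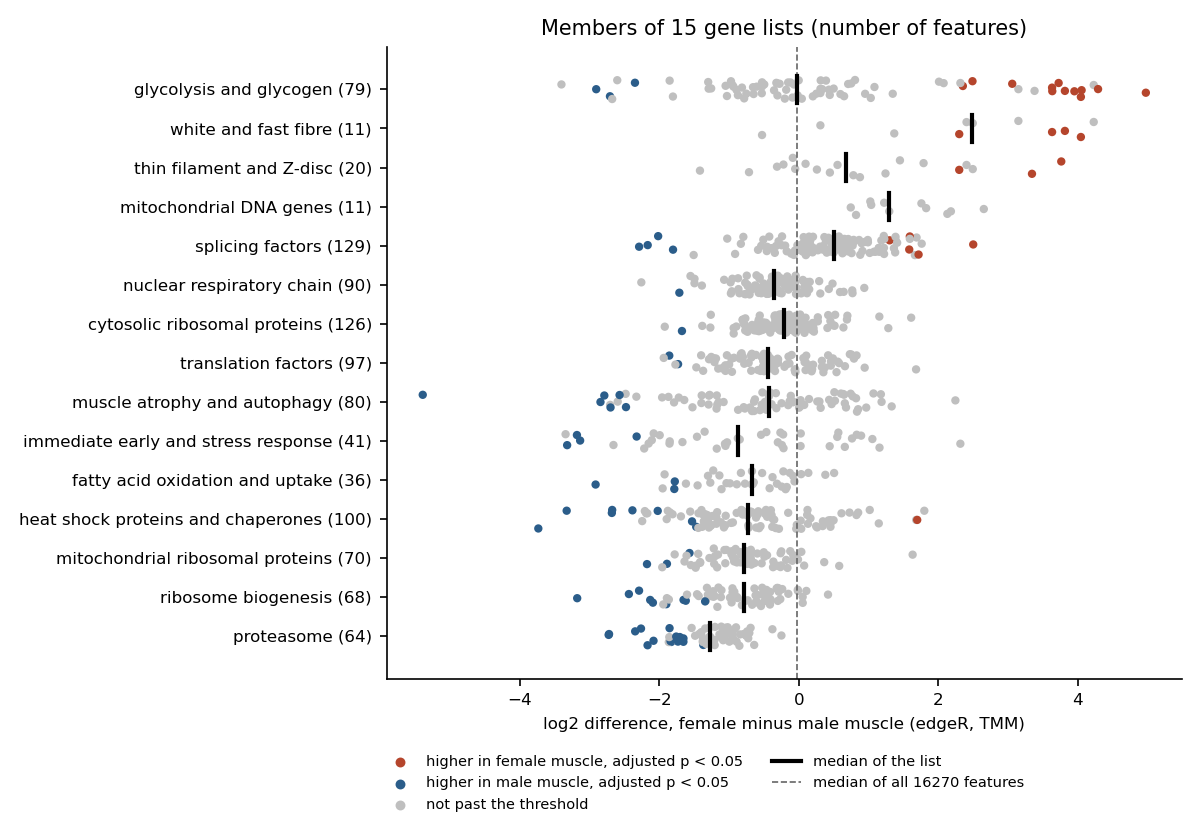
Log2 difference (female minus male muscle) of each member of 15 gene lists, the number of features in brackets; coloured points passed an adjusted p of 0.05, black bars are list medians and the dashed line is the median of all features. Proteasome members all lie below 0 around a median of -1.27, mitochondrial DNA genes all above 0 around 1.30, and the glycolysis list spreads from -3.40 to 4.98 around -0.02.

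Some enzymes of nitrogen transport and a gene known to respond to glucocorticoids were among the features higher in male muscle. Of 21 features of glutamine and alanine enzymes, a family picked after its values were seen, 0 were higher in female muscle and 4 in male muscle (against 1.75% of all features). The other 17 did not pass. Of the 21, 9 lay above 0 and 12 below, with a median of -0.06. Alanine aminotransferase gpt2l, which moves amino groups onto pyruvate, was lower in female muscle in 3 of 5 features, these 3 of one cluster, the first (TRINITY_DN147453_c0_g4) at 7.44 and 8.88 FPKM in female and 224 and 85.7 FPKM in male muscle (-3.74 ± 0.67, edgeR adjusted p = 0.012), the others with -3.66 and -3.62. Glutamine synthetase GLUL stood at 3.81 and 4.43 FPKM in female and 17.1 and 73.5 FPKM in male muscle (-3.13 ± 0.55, 0.011). The cochaperone Fkbp5 (TRINITY_DN137691_c1_g1), a classical target of the glucocorticoid receptor in mammals, stood at 8.86 and 11.97 FPKM in female and 109 and 353 FPKM in male muscle (-3.74 ± 0.84, 0.032), and a second feature, FKBP5, lay on the other side of 0 and did not pass (0.83 ± 0.40, 0.27). GLUL and Fkbp5 were the 2 calls (4.88%, against 2.96% of all features) among the 41 features of the glucocorticoid and steroid list, of which 24 lay above 0 and 17 below. Its median was 0.11, which turned negative under 4 of the 5 other scalings and was -0.31 without male muscle 1.

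Transcription factors of the stress response were part of the male side. CEBPD, which glucocorticoids and cytokines induce in mammals, stood at 81.2 and 19.2 FPKM in female muscle and 317 and 463 FPKM in male muscle (-2.33 ± 0.57, edgeR adjusted p = 0.045). CEBPE had a difference of -3.89 ± 0.93 (0.040), and CEBPB, at 3.80 and 9.50 FPKM in female and 85.1 and 393 FPKM in male muscle, missed the threshold at 0.052 (-4.20 ± 1.08). Klf16 (-3.32 ± 0.70, 0.025), JUND (-3.14 ± 0.73, 0.036) and SOCS3, the feedback inhibitor of cytokine receptors (-3.18 ± 0.77, 0.042), also passed. With CEBPD these made 4 of the 41 features of the immediate early and stress list (9.76%, against 1.75% of all features). None of the list was higher in female muscle, and its median was -0.87. Fewer of its features passed when any muscle library was left out. KEAP1 holds the oxidative stress factor NRF2 in check. It stood at 8.27 and 8.95 FPKM in female and 73.0 and 60.2 FPKM in male muscle (-2.38 ± 0.45, 0.015). Other features named KEAP1 did not pass (-0.21, 1.01 and 0.91). KEAP1 was the 1 call among 42 antioxidant features (2.38%, against 2.96% of all features), whose median was -0.04.

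Most chaperones that passed were higher in male muscle. Of 100 features 1 (against 1.2% of all features) was higher in female muscle, DNAJC18 (1.70 ± 0.32), and 8 (against 1.75%) in male muscle. The median was -0.73. The cytosolic hsp90ab1 (TRINITY_DN131104_c2_g5), a chaperone of kinases and hormone receptors, stood at 114 and 87.4 FPKM in female muscle against 778 and 1332 FPKM in male muscle (-2.68 ± 0.51, edgeR adjusted p = 0.015). The HSP90 of the endoplasmic reticulum, HSP90B1, was lower in 2 neighbouring features (-3.33 ± 0.71, 0.026, and -2.39 ± 0.56, 0.037), and the cochaperones Dnaja3, DNAJC7, AHSA1 and DNAJC1 were lower too (-1.47 to -2.68). The 12 features of the chaperonin CCT, which folds actin and tubulin, all lay below 0 with a median of -1.01, and none passed by edgeR, with 7 at an unadjusted p below 0.05. The chaperone list held 1.85% and 1.13% of listed counts in female muscle and 6.05% and 4.31% in male muscle. Of 39 features of endoplasmic reticulum folding none passed by edgeR, with 11 at an unadjusted p below 0.05. Without female muscle 2 none of the chaperones passed, and without female muscle 1 there were 3.

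Some ribosome assembly factors were also higher in male muscle. Of 68 ribosome biogenesis features 0 were higher in female muscle, 9 (13.2%, against 1.75% of all features) in male muscle and 59 did not pass, and 64 had a difference below 0, with a median of -0.79. Nucleolar nol11, needed to make ribosomal RNA, stood at 9.32 and 5.92 FPKM in female and 55.0 and 78.9 FPKM in male muscle (-2.44 ± 0.35, edgeR adjusted p = 0.0045), and the large-subunit assembly GTPase GNL2 at 51.1 and 29.3 FPKM in female and 283 and 264 FPKM in male muscle (-2.13 ± 0.42, 0.017). Ebna1bp2, a large-subunit processing factor, was lower in 2 features (-3.18 and -2.29), and noc3l, WDR43, nop16, Ddx47 and WDR36 had differences of -1.34 to -2.09. Outside the list, the small-subunit factor pno1 (-3.57 ± 0.60, 0.0089), the export adaptor nmd3 (-2.82 ± 0.48, 0.0096) and the nucleolar mybbp1a (-3.16 and -2.77) were in the same direction. The list's count was 6 without female muscle 1, 0 without female muscle 2, 2 without male muscle 1 and 11 without male muscle 2.

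Ribosomal proteins and translation factors were read as well. Of 126 cytosolic ribosomal protein features 1, RpL10A (-1.68 ± 0.41, edgeR adjusted p = 0.042), was higher in male muscle (0.794%, against 1.75% of all features). The median was -0.21, but 0.87 without male muscle 1 and -0.88 without male muscle 2. The most abundant of them, rpl35, stood at 24043 and 16927 FPKM in female muscle and 55891 and 45566 FPKM in male muscle. Of 70 mitochondrial ribosomal protein features 3 (4.29%, against 1.75% of all features) were higher in male muscle (mrpl28, MRPL16 and MRPS9, -1.57 to -2.18). Their list had a median of -0.79, but -0.24 without male muscle 1 and -1.21 without male muscle 2. Of 97 translation factor features 2, Eif4g1 and EIF2S1, were higher in male muscle, and of 55 aminoacyl-tRNA synthetase features 1, RARS, shares near that of all features. The other features named EIF4G1 lay above 0 and did not pass (1.68, 0.33 and 0.49). The pyrimidine enzymes CAD (-2.94 and -2.58) and ctps1 (-2.42 and -2.41), which make the uridine and cytidine nucleotides, were higher in male muscle in 2 features each.

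Splicing factors went both ways. Of 129 features 5 were higher in female muscle and 4 in male muscle, together 6.98%, against 2.96% of all features. Their median of 0.50 turned negative under 3 of the 5 other scalings. On the female side were Tra2b (2.50 ± 0.46 and 1.60), rbm5 (1.72 ± 0.32), Ddx5 (1.58 ± 0.38) and SRSF5 (1.30 ± 0.32). On the male side were prpf38a (-2.29 ± 0.37), prpf39 (-2.17 ± 0.33), Srrm2 (-2.02 ± 0.39) and lsm14 (-1.80 ± 0.31). The last was counted only because its name fits the pattern used for LSM proteins, and it need not be a splicing factor. The p53 inhibitor mdm4 was higher in female muscle in 3 features, at 153 and 80.6 FPKM in female and 25.8 and 49.4 FPKM in male muscle for the first (2.41 ± 0.52, edgeR adjusted p = 0.026).

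Some enzymes of fat oxidation were higher in male muscle. Of 36 fatty acid oxidation and uptake features 0 were higher in female muscle, 3 (8.33%, against 1.75% of all features) in male muscle and 33 did not pass, with a median of -0.67. Medium-chain acyl-CoA dehydrogenase ACADM, which starts each round of beta-oxidation, stood at 46.7 and 41.2 FPKM in female and 251 and 142 FPKM in male muscle (-1.79 ± 0.38, edgeR adjusted p = 0.024). ACADVL, which does the same for very long chains (-1.78 ± 0.42, 0.039), and the peroxisomal thiolase ACAA1 (-2.91 ± 0.57, 0.017) were the others. MLYCD, which removes malonyl-CoA, the brake on fatty acid entry into mitochondria, was not in the list and stood at 5.80 and 2.88 FPKM in female and 86.5 and 41.5 FPKM in male muscle (-3.40 ± 0.53, 0.0074). A further 3 features named acsbg2, for enzymes that activate long-chain fatty acids, had differences of -1.95 to -2.10. The list's count was 0 without either female library, 1 without male muscle 1 and 4 without male muscle 2.

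The 11 features encoded in mitochondrial DNA all lay above 0, with a median of 1.30 that kept its sign under each other scaling. None passed by edgeR, and 2 reached an unadjusted p of 0.05, MT-ND5 at 332 and 333 FPKM in female and 79.5 and 176 FPKM in male muscle (2.13, adjusted p = 0.22) and MT-ND1 (2.18, 0.24), both subunits of complex I. Their share of listed counts was 2.84% and 2.72% in female muscle and 1.483% and 1.498% in male muscle. Of the 90 nuclear-encoded respiratory chain features, 71 lay below 0 and the median was -0.35, but 0.32 without male muscle 1 and -0.83 without male muscle 2, and 1, the complex I assembly factor NDUFAF6, was higher in male muscle (-1.71 ± 0.36, 0.023). Of the 37 TCA cycle features none passed by edgeR, with 13 at an unadjusted p below 0.05 and PDHX nearest to the threshold (-1.75, 0.052).

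The following groups of interest to muscle growth showed no call in this comparison. Of 21 myogenic factor features, of 12 distinct names, none passed by edgeR and 4 reached an unadjusted p of 0.05, with dystroglycan DAG1 nearest (1.73 ± 0.45, edgeR adjusted p = 0.054). Myogenic factors silent in brain, liver or gonad are outside the comparison and were not read. Of 62 collagen and extracellular matrix features none passed and 11 reached an unadjusted p of 0.05, with the prolyl hydroxylases P4HA2 (-2.21) and P4HA1 (-2.11) nearest at adjusted p = 0.11. Of 12 features of the phosphagen and purine shuttle none passed and 4 reached an unadjusted p of 0.05, with the creatine transporter Slc6a8 nearest (1.50 ± 0.46, 0.091).

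Markers of other cell types were read in the same libraries, and their part in the results above was not tested. In bulk tissue, fewer cells of a type and less RNA per cell cannot be told apart. None of the 16 immune features passed by edgeR and 2 reached an unadjusted p of 0.05, but male muscle 2 stood apart. The leukocyte marker ptprc was at 5.43 and 5.79 FPKM in female muscle and 5.20 and 53.3 FPKM in male muscle, CD74 at 208 and 191 FPKM in female and 244 and 1115 FPKM in male muscle, and b2m at 341 and 277 FPKM in female and 380 and 2254 FPKM in male muscle. The immune list held 0.185% and 0.173% of listed counts in female and 0.189% and 0.972% in male muscle. Of the 23 adipocyte features none passed by edgeR and 6 reached an unadjusted p of 0.05. Their summed level was 214 and 498 FPKM in female and 411 and 5730 FPKM in male muscle, with apolipoprotein apoeb at 32.5 and 157 FPKM in female and 73.2 and 2981 FPKM in male muscle.

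Red blood cell features were read too. The alpha globin hbaa stood at 514 and 1619 FPKM in female and 29.6 and 36.0 FPKM in male muscle (5.81 ± 1.52, edgeR adjusted p = 0.055) and the beta globin hbb1 at 2395 and 6487 FPKM in female and 93.7 and 657 FPKM in male muscle (4.61 ± 1.39, 0.090). None of the 4 blood features passed by edgeR and 2 reached an unadjusted p of 0.05. Liver and plasma features held 0.0128% and 0.0139% of listed counts in female muscle and 0.0135% and 0.0147% in male muscle. None of these 17, the 20 skin and epithelium or the 4 cartilage and bone features passed by edgeR, with 3, 4 and 0 at an unadjusted p below 0.05. The calls in the neuron and glia list and in the endothelium and smooth muscle list were ENO2 and Actg2, described above with the enolases and actins.

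The muscle difference was then tested against the sex difference of other tissues in the same edgeR fit. The labels do not say whether one fish gave several tissues, and the fit treats all libraries as independent. Against the mean of brain and liver, 1378 features (8.47%) differed, 681 (4.19%) with a more positive and 697 (4.28%) with a more negative value in muscle. Against gonad, the tissue with the largest number of calls between the sexes, 5239 (32.2%) differed, 2588 (15.9%) upward and 2651 (16.3%) downward. Without female muscle 2 the first count was 73 and without male muscle 1 it was 127, while without male muscle 2 it was 2220. Among named features also called in muscle, FBXO32 had the most negative value against brain and liver (-5.61 ± 0.78, edgeR adjusted p = 0.0055), with sex differences of 0.72 in brain, -0.29 in liver and 0.49 in gonad. The second ldha feature had the most positive (6.79 ± 0.74, 0.0017), with -3.17 in brain and -3.15 in liver, both higher in males.

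**Figure D5:**
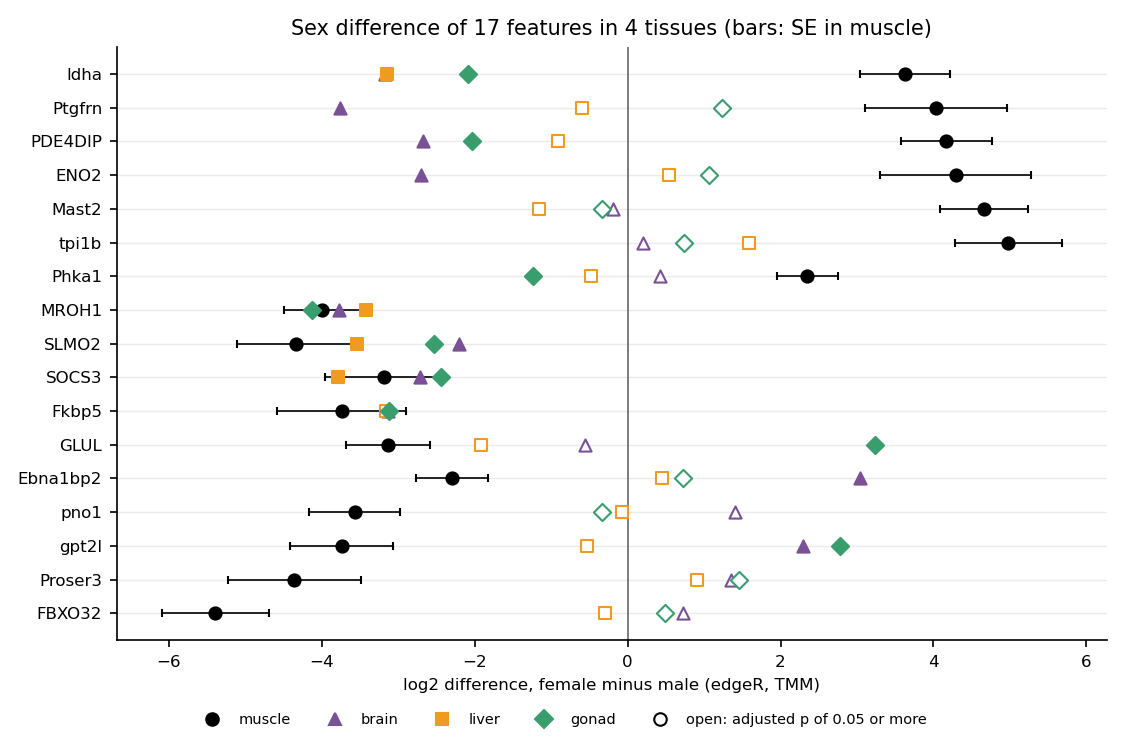
Log2 sex difference (female minus male) of 17 features in muscle, brain, liver and gonad; filled symbols passed an adjusted p of 0.05 in that tissue, open symbols did not, and bars are the SE in muscle. For ldha, Ptgfrn and PDE4DIP the muscle value lies above 3 while brain lies below -2, and for MROH1, SLMO2 and SOCS3 all 4 tissues lie below -2.

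Of the 481 muscle calls, 90 (18.7%) were called in the same direction in brain and 61 (12.7%) in the opposite one, where 39.8% of all features were called (21.4% higher in females, 18.4% higher in males). In liver 22 (4.57%) were called in the same direction, 4.86% of the 453 called there, and 3 in the opposite one, where 2.78% of all features were called (1.46% higher in females, 1.33% higher in males). In gonad 97 (20.2%) were called in the same direction and 174 (36.2%) in the opposite one, where 47.1% of all features were called (23.3% higher in females, 23.8% higher in males). In all 4 tissues 7 features were called in the same direction, 5 of them higher in males. These were MROH1, a protein of HEAT repeats, the mitochondrial lipid carrier SLMO2, SOCS3, the transcription factor CREB3L3 and the ubiquitin ligase MIB2. MROH1 (TRINITY_DN147406_c2_g1) stood at 1.51 and 2.41 FPKM in female muscle against 15.4 and 39.9 FPKM in male muscle (-3.99 ± 0.50, edgeR adjusted p = 0.0032, 4 of 4 fits), with -3.77 in brain, -3.42 in liver and -4.13 in gonad. SLMO2 stood at 0.40 and 2.35 FPKM in female and 58.4 and 23.7 FPKM in male muscle (-4.34 ± 0.77, 0.011). Higher in females in all 4 tissues were ZNF84, a zinc finger protein (2.33 in muscle), and 1 feature with no name (1.93 in muscle).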

How the data were processed

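RNA-seq of 4 tissues in both sexes gave 16 listed libraries in 8 groups of 2. From the authors' deposited table were taken an estimated count and an FPKM value per feature and library, and a gene length per feature. The values were made with RSEM per the submitters' processing notes (version, read filters and strand: not given in the sources used here). Names are the closest protein in the authors' annotation (11450 of 16270 features, 7970 distinct names). A further 16 value columns, of 8 libraries with no listed sample, were not used here.

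Estimated counts were rounded and tested in R 4.3.3 with edgeR 4.0.16 (TMM factors 0.623 to 1.84, quasi-likelihood F test, two-sided, Benjamini-Hochberg, threshold 0.05) over all 16 libraries, with 8 residual degrees of freedom; the biological coefficient of variation had a median of 0.341. A filter of 1 FPKM in 2 libraries removed no feature. Muscle was compared by contrast, and its sex difference with those of brain and liver and of gonad by interaction contrasts. Library totals were recovered from the counts, the FPKM and the gene lengths less a fitted offset. In muscle they were 9659791 and 9982948 in female and 11880082 and 12689349 in male libraries, of which the listed features held 53.4% and 51.4% in female and 60.4% and 66.0% in male. FPKM ratios rest on these totals and so differ from the TMM-scaled differences.

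Alternatives were RLE and 2 other scalings, limma 3.58.1 on log2 FPKM with a pseudocount of 1 or 0.1, DESeq2 1.42.0, other filters, other sets of libraries, a replicate block and each muscle library left out. On simulated counts with 200 of 16270 features changed, 33% of log2 changes of 2 and 3% of log2 changes of 1 were recovered, with a false share of 2.7%. Every simulated feature had the same coefficient of variation, 0.341, in all libraries, unlike the measured ones. These shares therefore cannot be taken as those of the 481 calls.

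The features named include the 15 with the largest difference in each direction, among calls with a gene name whose libraries did not overlap in FPKM. They also include up to 6 past the threshold per gene list, the most abundant ones and those most different between tissues. Others were named after their values were seen. The members and the gene lists were chosen with earlier results of these data known. Figures were drawn with matplotlib 3.10.9. One result is not reported here.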

Additional observations from a re-analysis of the deposited data

Results flagged for a closer look

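The sex difference in muscle was not the same as in other tissues for 1378 features when set against the mean of brain and liver, and for 5239 when set against gonad, each by a test of the difference itself in the edgeR fit. Of 162 features past the threshold in muscle that were picked for closer reading, 94 passed the first of these tests and 122 the second. With 2 libraries a group, no library could be tested for standing apart from its group.

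Against brain and liver, the muscle difference was more positive for ldha (6.79), Ptgfrn (6.21), PDE4DIP (5.97), ENO2 (5.37) and Mast2 (5.34). It was more negative for FBXO32 (-5.61), Proser3 (-5.49), gpt2l (-4.63), pno1 (-4.23) and Ebna1bp2 (-4.03). Against gonad it was more positive for ACTB_G1 (7.51), OSBP2 (6.45), PDE4DIP (6.21), mdm4 (6.20) and PGK (6.13). It was more negative for cyc (-7.70), gjc1 (-6.72), gpt2l (-6.51), GLUL (-6.36) and Upp1 (-6.19). Each is a log2 value of the muscle difference, female minus male, less that of the other tissue.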

How the results depend on the processing

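The count of 481 features was 925 when scaled by listed counts, 2092 by recovered totals, 1464 by DESeq2, 1437 and 1485 by limma with a pseudocount of 1 and 0.1, 210 without the gonad libraries, 0 with the 4 muscle libraries alone and 231 with those 4 and a replicate block. Leaving out each muscle library gave 37 to 410 (37 without female muscle 2, 189 without female muscle 1). The count of 1378 against brain and liver was 835 by listed counts, 2919 by DESeq2 and 682 without gonad, and 73 to 2220 with one library left out. That of 5239 against gonad stayed within 1.5 times under every alternative run, with 3682 to 5382 with one library left out. RLE scaling (461) and a mean of at least 10 counts (499) moved the first count little. The run with no filter (481) repeated the same fit, because the filter had removed no feature. Same-numbered libraries deviated together only weakly in muscle (correlation 0.0536, against 0.193 in liver). The labels do not say whether the numbers pair them, and with 2 libraries a group this correlation cannot decide it. With a replicate block the counts were 685, 1952 and 5701. Of 162 features past the threshold that were picked for closer reading, none changed sign under any alternative run, and 16 stayed past it without female muscle 2, against 68 to 101 without each other library. Of the 481 features, 34 had fewer than 10 counts in a muscle library. The causes were not tested.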

Other observations

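Some genes set the 2 female libraries far apart. The fast-fibre calcium pump Atp2a1 stood at 1.64 and 160 FPKM in female muscle and 34.8 and 82.4 FPKM in male muscle, a difference of 8.21 in log2 CPM between the female libraries. The deubiquitinase Otud1 stood at 1.14 and 512 FPKM in female muscle and 336 and 310 FPKM in male muscle, and the immediate early factor Jun at 1.81 and 91.6 FPKM in female and 34.3 and 55.9 FPKM in male muscle. For DUSP8, a phosphatase of stress kinases, the values were 2.81 and 58.1 FPKM in female and 46.2 and 64.6 FPKM in male muscle. In each of these female muscle 1 was the low library. These genes were picked for that difference, so it is a description.

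Features without a name made up 93 of the 481 calls, 59 of them higher in female and 34 higher in male muscle. One of them, TRINITY_DN125136_c3_g3, of 330 bases and in the same assembled cluster as the abundant gapdh features, stood at 131290 and 122907 FPKM in female muscle and 9057 and 10843 FPKM in male muscle (4.62 ± 0.95, edgeR adjusted p = 0.022).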
